A study of Homo sapiens with 27 samples.

Results

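Semaphorins of classes 5, 6 and 7 were followed in 92.1 cells, a human uveal melanoma line with a *GNAQ* mutation, during 21 days of inhibition of focal adhesion kinase (FAK). The 7 genes *SEMA5A*, *SEMA5B*, *SEMA6A*, *SEMA6B*, *SEMA6C*, *SEMA6D* and *SEMA7A* were taken by symbol from a count table of 61533 genes, and each had 1 row. Cells were kept in 100 nM of VS-4718, a selective FAK inhibitor (FAKi), or in the solvent DMSO, and the study asked how semaphorin and plexin expression responds when FAK is blocked over time. mRNA was sequenced in 27 libraries, which form 9 groups of 3: DMSO at day 0, and DMSO or FAKi at each of days 3, 7, 14 and 21. All groups came from this 1 line, with the same *GNAQ* mutation, and medium and treatment were renewed at regular intervals in both arms. The source methods mention triplicate plating as well as repeats of the whole experiment, and the labels do not say which of these a replicate number counts, so p-values measure the spread between these libraries, which may be technical.

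Semaphorins are extracellular guidance proteins that share a sema domain and signal mainly through plexin receptors to the actin cytoskeleton and cell adhesion. Class 5 semaphorins carry thrombospondin repeats outside the membrane, and class 6 semaphorins span the membrane and can act both as ligands and, through their cytoplasmic tails, as receptors. *SEMA7A* is held to the membrane by a glycosylphosphatidylinositol anchor and so is not a transmembrane protein in the strict sense, although it is grouped with the others here. Textbook receptors are *PLXNA2* and *PLXNA4* for *SEMA6A*, *PLXNA1* for *SEMA6D*, *PLXNB3* for *SEMA5A*, and *PLXNC1* and the integrin subunit *ITGB1* for *SEMA7A*.

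At day 21, 4 of the 6 genes tested were called as different between FAKi and DMSO, where 5.28% of all genes were called. Of these 4, *SEMA6A* and *SEMA5A* lost their call when 1 FAKi library was left out. *SEMA6A* was 2.37-fold and *SEMA6D* 4.27-fold higher in FAKi, and *SEMA6B* was 3.39-fold and *SEMA5A* 5.36-fold lower. For *SEMA6A* and *SEMA6D* the libraries of the arms did not overlap on earlier days either, with FAKi the higher. Of all genes, 31.1%, 16.8% and 29% did not overlap in either direction at days 3, 7 and 14. The main edgeR test called 0 of 6 on each of these days, where it called 0%, 0.0269% and 1.66% of all genes. The day 3 count depended on the DMSO libraries used, and it was 3 by DESeq2, without a count filter and in 1 fit of all 27 libraries. *SEMA5A* turned from 1.76-fold higher in FAKi at day 14 to lower at day 21. *SEMA6C* and *SEMA7A* were not called on any day, and *SEMA5B* was hardly detected.

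Expression is given as CPM, a library's counts relative to its total after scaling all 27 libraries together with edgeR's TMM factors. Total counts per library were 12161994 to 43651551 (median 24759579), and at days 3 and 14 every DMSO library was deeper than every FAKi library. All 8 melanocyte lineage markers were detected in all 27 libraries, with a summed level of 9467 to 15552 CPM, whereas 8 markers of other cell types summed to 3.97 to 11.2 CPM, most of it *COL1A1* (mean 5.73 CPM), with the leukocyte gene *PTPRC*, the endothelial gene *CDH5* and the epithelial gene *EPCAM* near 0. Of the 27 libraries, 9 lay closer to a library of another group than to a replicate of their own. DMSO day 3 replicate 1 lay nearest to DMSO day 0 replicate 3, and replicates 2 and 3 of that group lay nearest to DMSO day 21 replicate 3. Mitochondrial genes took 5.49% to 11.2% of the counts in 8 libraries, which were the 6 libraries of day 21 and DMSO day 3 replicates 2 and 3, and 16.8% to 26.97% in the other 19. Whether the labels of DMSO day 3 replicates 2 and 3 or the state of their cultures differ cannot be told apart. The labels were kept. For FAKi against DMSO at day 3, the log2 fold changes of the 6 genes tested are also given without these libraries. For other comparisons that use DMSO day 3 this holds for some genes only. Partner genes, correlations and the shares of all genes at day 3 rest on all DMSO day 3 libraries. DMSO day 21 replicate 3, whose count header gives the day with an extra digit, lay nearest to DMSO day 3 replicate 3. It had 9.75% mitochondrial counts, against 5.49% in each of replicates 1 and 2 of its group, and its label was kept.

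*SEMA6A* was by far the most abundant of the 7 genes. Compared per length, as CPM per kilobase of the counted transcript (RPKM), *SEMA6A* stood at 89.5 ± 38.9 RPKM (SD over 27 libraries), *SEMA6B* at 1.96 ± 1.25 RPKM, *SEMA6D* at 1.86 ± 1.10 RPKM, *SEMA6C* at 1.66 ± 0.313 RPKM, *SEMA7A* at 0.885 ± 0.269 RPKM and *SEMA5A* at 0.749 ± 0.465 RPKM. *SEMA6A* was above each of the other 6 genes in 27 of 27 libraries and made up 77.5% to 95.8% of their summed RPKM. The order of the remaining genes was not fixed. *SEMA6B* exceeded *SEMA6D* in 13 of 27 libraries, *SEMA6B* exceeded *SEMA6C* in 13, and *SEMA5A* exceeded *SEMA7A* in 8.

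**Figure D1:**
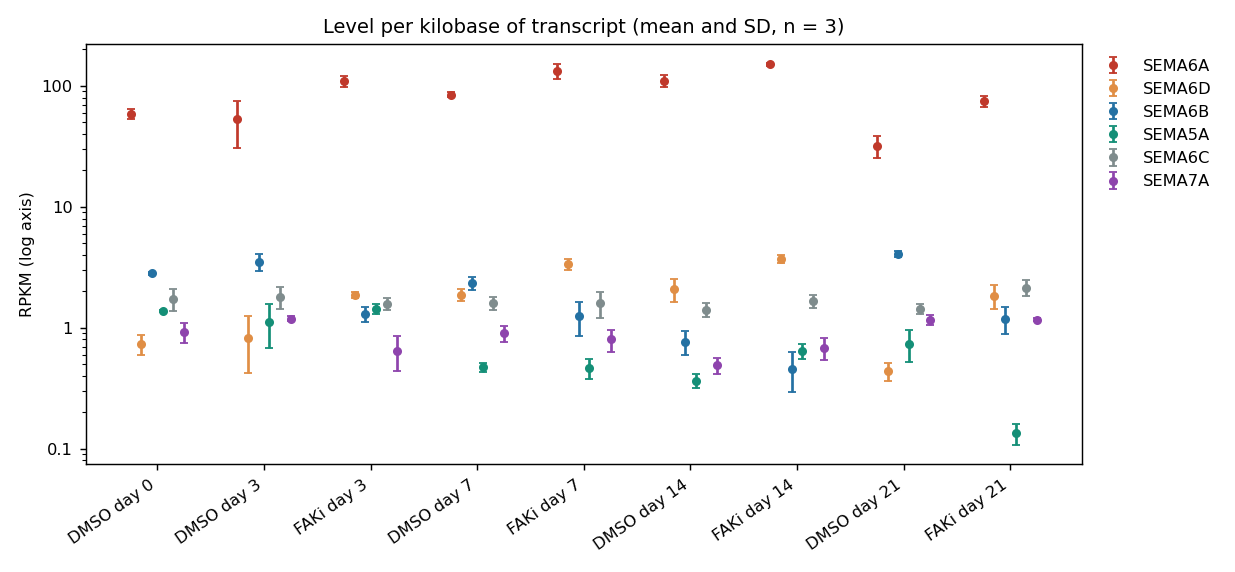
Level of the 6 measurable semaphorins per kilobase of transcript (RPKM, log axis) in each of the 9 groups; points are means and bars SD of 3 libraries. SEMA6A lies apart from the rest in every group, between 31.9 and 150.5 RPKM, and SEMA5A reaches the lowest point, 0.134 RPKM in FAKi at day 21.

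*SEMA5B* (ENSG00000082684.16, minus strand of chromosome 3 of hg38, 122909193 to 122976134, 23 exons), the second class 5 gene, was at the limit of detection. It had 13 counts over all 27 libraries, in 7 of them, and at most 4 counts in a library. A count of 0 allows up to 0.0680 to 0.243 CPM depending on the library (3 counts, counting error only), and the gene passed the filter of 20 counts in none of the 16 comparisons. The other 6 genes passed it in all 16, with at least 21 counts in every library.

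*SEMA6A* (ENSG00000092421.17, minus strand of chromosome 5 of hg38, 116443555 to 116574823, 19 exons) encodes a class 6 ligand that binds A-type plexins. Replicates 1, 2 and 3, in this order here and for the genes that follow, had 367, 395 and 437 CPM in DMSO at day 0. Later DMSO values, also in CPM, were 534, 293 and 251 on day 3, 546, 586 and 591 on day 7, 684, 843 and 715 on day 14, and 202, 182 and 266 on day 21. FAKi values were 689, 832 and 713 on day 3, 1038, 866 and 793 on day 7, 1036, 1037 and 994 on day 14, and 464, 486 and 564 on day 21. In both arms the group mean was highest at day 14 and lower again at day 21, and on each of the 4 days all 3 FAKi libraries were above all 3 DMSO libraries. Ordered by mean over the 9 groups, *SEMA6A* ran from FAKi day 14 (1022 ± 24.2 CPM) to DMSO day 21 (217 ± 43.8 CPM), and only 2 of the 8 steps between neighbours in that order separated groups whose libraries did not overlap. In bulk libraries, a change in the share of cells that express a gene and a change in its RNA per cell cannot be told apart.

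The log2 fold change of *SEMA6A* in FAKi against DMSO was 1.08 (SE 0.27) at day 3, 0.65 (SE 0.15) at day 7, 0.45 (SE 0.10) at day 14 and 1.24 (SE 0.18) at day 21. Calls here needed both an adjusted p no higher than 0.05 and a log2 fold change beyond 1 in either direction. Benjamini-Hochberg adjusted p-values of edgeR's quasi-likelihood test for *SEMA6A* were 0.0972 at day 3, 0.246 at day 7, 0.00291 at day 14, where the fold was below the limit, and 0.00852 at day 21, when it was called at 2.37-fold higher in FAKi. Leaving out FAKi day 21 replicate 2 or 3 gave edgeR adjusted p of 0.0625 or 0.0591 and ended the call.

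Part of the exonic sequence of *SEMA6A*, 4.44%, is shared with *SEMA6A-AS1* and *SEMA6A-AS2* on the opposite strand. *SEMA6A-AS1* was at 15.9 ± 7.62 CPM (SD, 27 libraries) and *SEMA6A-AS2* at 0.579 ± 0.366 CPM. The libraries were made with a stranded kit, but the counting command in the table's header sets no strand option, so sense and antisense reads at the shared bases cannot be told apart here.

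*SEMA6D* (ENSG00000137872.17, plus strand of chromosome 15, 47718489 to 47774223, 19 exons), a class 6 ligand of *PLXNA1*, was likewise higher in FAKi, at a much lower level. DMSO values, in CPM, were 3.64, 4.30 and 5.29 on day 0, 7.50, 5.08 and 2.53 on day 3, 10.1, 11.3 and 12.8 on day 7, 11.5, 15.9 and 10.8 on day 14, and 2.35, 2.44 and 3.19 on day 21. FAKi values were 10.7, 11.9 and 11.4 on day 3, 22.2, 18.1 and 20.5 on day 7, 20.7, 22.1 and 24.1 on day 14, and 10.6, 8.98 and 13.8 on day 21. On none of the 4 days did the treatments overlap, and FAKi was the higher each time. The log2 fold change was 1.19 (SE 0.33) at day 3, 0.83 (SE 0.16) at day 7, 0.81 (SE 0.16) at day 14 and 2.09 (SE 0.24) at day 21. *SEMA6D* was called at day 21, at 4.27-fold (edgeR's quasi-likelihood test, Benjamini-Hochberg adjusted p = 0.00433), and at day 14 its edgeR adjusted p was 0.00136 with a fold under the limit. Its day 21 call held without any of the 6 libraries of that day. For the earlier days the edgeR adjusted p was 0.101 at day 3 and 0.163 at day 7. The FAKi effect on *SEMA6D* at day 21 exceeded that at day 14 by 1.27 (SE 0.29) on the log2 scale, and this difference was called (edgeR interaction term, Benjamini-Hochberg adjusted p = 0.00938).

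*SEMA6B* (ENSG00000167680.17, minus strand of chromosome 19, 4542593 to 4559684, 17 exons), also a class 6 transmembrane ligand, was lower in FAKi. DMSO values, in CPM, were 10.7, 11.2 and 10.5 on day 0, 11.8, 12.5 and 15.98 on day 3, 8.02, 8.65 and 10.1 on day 7, 2.30, 2.87 and 3.61 on day 14, and 15.3, 16.6 and 14.8 on day 21. Those in FAKi were 5.36, 4.15 and 5.38 on day 3, 3.58, 6.45 and 4.29 on day 7, 2.49, 1.28 and 1.52 on day 14, and 3.61, 5.79 and 4.20 on day 21. All FAKi libraries were below all DMSO libraries at days 3, 7 and 21, and the arms overlapped at day 14, when both were lowest. The log2 fold change was -1.41 (SE 0.21) at day 3, -0.89 (SE 0.24) at day 7, -0.73 (SE 0.36) at day 14 and -1.76 (SE 0.20) at day 21. *SEMA6B* was called at day 21, when DMSO was 3.39-fold above FAKi (edgeR's quasi-likelihood test, Benjamini-Hochberg adjusted p = 0.00441), and this call held without any of the 6 libraries of that day. The edgeR adjusted p was 0.0945 at day 3, 0.330 at day 7 and 0.224 at day 14.

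*SEMA6C* (ENSG00000143434.17, minus strand of chromosome 1, 151131707 to 151146611, 19 exons), the fourth class 6 gene, varied least. It lay between 6.22 and 12.98 CPM in all 27 libraries, and none of the 8 steps between neighbours in the order of its 9 groups separated non-overlapping libraries. Its highest group was FAKi at day 21, with 9.59, 12.98 and 11.0 CPM, against 7.71, 6.65 and 8.10 CPM in DMSO on that day. These libraries did not overlap, at a log2 fold change of 0.60 (SE 0.18), which missed both limits (edgeR's quasi-likelihood test, Benjamini-Hochberg adjusted p = 0.0634). At days 3, 7 and 14 its log2 fold changes were -0.17, -0.0040 and 0.24, with SE of 0.20, 0.22 and 0.19. With DMSO day 3 replicates 2 and 3 left out, which leaves a single DMSO library, the day 3 value was -0.44.

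**Figure D2:**
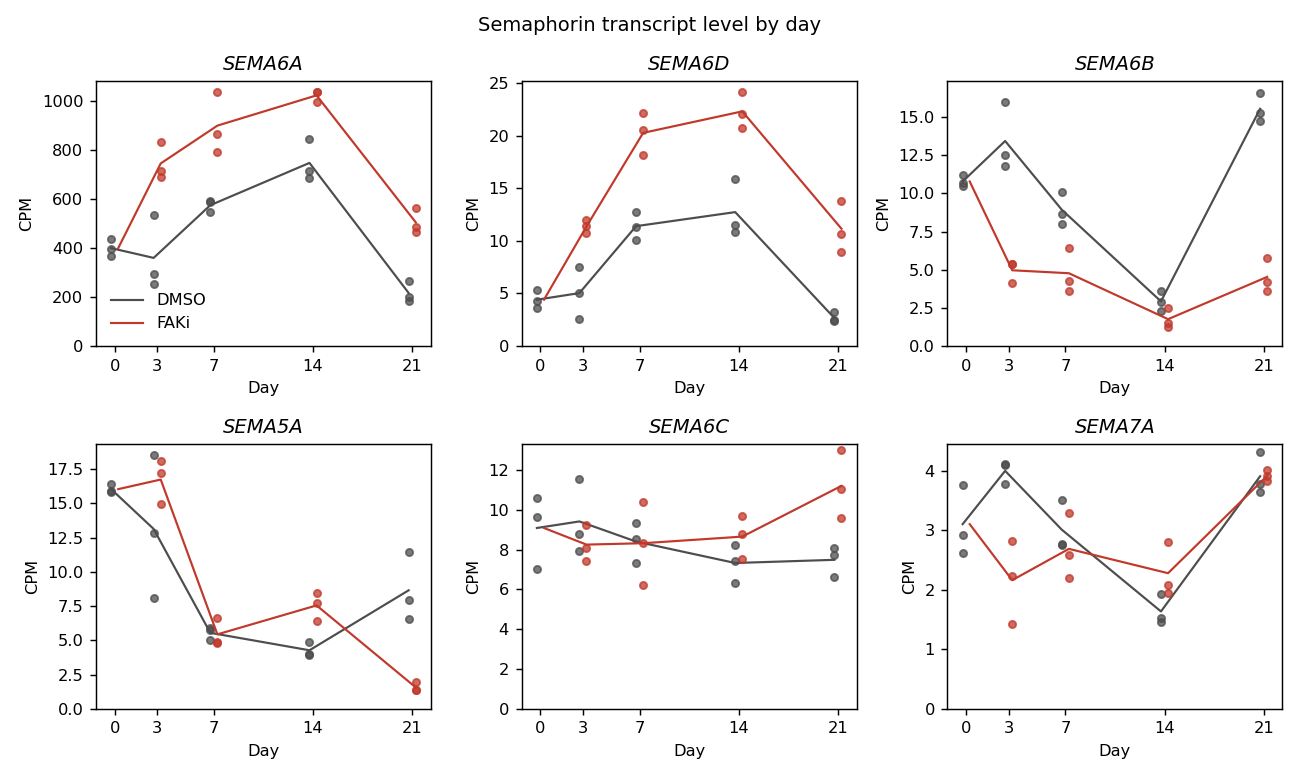
Level of 6 semaphorin genes (CPM, linear axes from 0) against day; points are single libraries, lines join group means, grey is DMSO, red is FAKi, and the day 0 group is the start of both lines. SEMA6A and SEMA6D are higher in FAKi on each day, SEMA6B is lower in FAKi at days 3, 7 and 21, and SEMA5A is higher in FAKi at day 14 (7.55 against 4.28 CPM) and lower at day 21 (1.57 against 8.66 CPM).

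*SEMA5A* (ENSG00000112902.12, minus strand of chromosome 5, 9035033 to 9546075, 23 exons), a class 5 semaphorin known as a ligand of *PLXNB3*, differed between the arms in both directions over time. It stood at 15.8, 15.9 and 16.4 CPM in DMSO at day 0, and the later DMSO values, in CPM, were 18.5, 12.8 and 8.08 on day 3, 4.99, 5.75 and 5.91 on day 7, 4.89, 4.03 and 3.90 on day 14, and 6.58, 7.95 and 11.4 on day 21. In FAKi the values were 14.9, 17.2 and 18.1 on day 3, 6.66, 4.78 and 4.87 on day 7, 6.42, 7.75 and 8.49 on day 14, and 1.36, 1.41 and 1.93 on day 21, the last from 31, 26 and 67 counts. The arms overlapped at days 3 and 7, FAKi was the higher at day 14 and the lower at day 21. The log2 fold change was 0.37 (SE 0.27) at day 3, -0.024 (SE 0.20) at day 7, 0.82 (SE 0.22) at day 14 and -2.42 (SE 0.29) at day 21. Benjamini-Hochberg adjusted p-values of edgeR's quasi-likelihood test were 0.417, 0.981, 0.0162 and 0.00478 on these days, and the gene was called at day 21, with DMSO 5.36-fold above FAKi. Without FAKi day 21 replicate 2 the edgeR adjusted p at day 21 was 0.0541 and the call ended. The turn from higher to lower between days 14 and 21, a difference of -3.26 (SE 0.35) on the log2 scale, was called as well (edgeR interaction term, Benjamini-Hochberg adjusted p = 5.46e-05). Of the exonic bases of *SEMA5A*, 3.71% overlap a gene on the opposite strand, ENSG00000250619.

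*SEMA7A* (ENSG00000138623.10, minus strand of chromosome 15, 74409289 to 74433958, 14 exons), known for integrin-dependent signaling in neurons and immune cells, was at 1.43 to 4.31 CPM. No step between neighbouring groups in its order separated non-overlapping libraries. At day 3 it was at 4.10, 3.77 and 4.11 CPM in DMSO and 2.82, 2.23 and 1.43 CPM in FAKi, where 21 to 59 counts stood behind each value. These libraries did not overlap, and the log2 fold change of -0.85 (SE 0.28) was not called (edgeR's quasi-likelihood test, Benjamini-Hochberg adjusted p = 0.124). With DMSO day 3 replicates 2 and 3 left out, which leaves a single DMSO library, it was -0.86. At days 7, 14 and 21 its log2 fold changes were -0.16 (SE 0.25), 0.47 (SE 0.37) and 0.025 (SE 0.20), with edgeR adjusted p of 0.883, 0.501 and 0.940. The arms did not overlap at day 14 either, there with FAKi the higher, at 1.95 to 2.80 CPM against 1.45 to 1.93 CPM in DMSO. Of all genes, 31.1% did not overlap at day 3 and 29% at day 14.

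To show the region before the start of the counted transcript for a gene that was higher in FAKi and one that was lower at day 21, the 250 bases upstream of *SEMA6D* and *SEMA5A* are printed 5′ to 3′ from RefSeq on GRCh38.p14. *SEMA6D* lies at chr15:47718239-47718488 on the plus strand and *SEMA5A* at chr5:9546076-9546325 on the minus strand, and capitals mark the GC box letters GGGCGG on either strand.
SEMA6D: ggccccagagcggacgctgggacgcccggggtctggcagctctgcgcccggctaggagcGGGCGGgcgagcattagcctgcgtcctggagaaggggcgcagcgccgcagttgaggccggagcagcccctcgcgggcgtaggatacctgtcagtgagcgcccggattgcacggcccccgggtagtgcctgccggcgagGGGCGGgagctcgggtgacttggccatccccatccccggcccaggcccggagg
SEMA5A: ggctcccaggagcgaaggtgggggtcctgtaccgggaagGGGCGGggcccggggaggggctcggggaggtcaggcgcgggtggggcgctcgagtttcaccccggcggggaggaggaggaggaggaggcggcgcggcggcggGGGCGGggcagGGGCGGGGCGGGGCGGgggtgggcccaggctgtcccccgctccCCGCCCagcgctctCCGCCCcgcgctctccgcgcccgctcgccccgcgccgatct
Of the 7 genes, 5 had a RefSeq entry and 3 had one at the start of the counted transcript, *SEMA7A* being the third. In the window of 250 bases before to 50 after the start, the GC box occurred 7 times for *SEMA5A* and 3 times for *SEMA6D*, and 45% of 35116 promoters held it at least once. Neither window held GGAATG (the TEAD core), TGANTCA (AP-1) or TATAAA on either strand, which were found in 14%, 7.71% and 11.5% of promoters. The E-box CANNTG, which also covers CATGTG and CACGTG, occurred 1 time for *SEMA6D* and not for *SEMA5A*, against 68.7% of promoters, and neither window held CATGTG (11.1%) or CACGTG (7.26%).

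FAKi against DMSO was tested on 22299 to 23443 genes per day, and the counts of semaphorins are best read against the share of all genes. At day 3, 0 of 6 semaphorins were called by edgeR, where 0% of all genes were called. At an unadjusted p under 0.05 it was 4 of 6 (*SEMA6A*, *SEMA6D*, *SEMA6B* and *SEMA7A*) against 23.8% of all genes, and the libraries of the arms did not overlap for 4 of 6 against 31.1%. DESeq2 called 3 at day 3, *SEMA6A*, *SEMA6D* and *SEMA6B*. The shares of all genes given here and below are not those of DESeq2, so its counts have no share beside them. At day 7 edgeR called 0 of 6, against 0.0269% of all genes, with 3 at an unadjusted p under 0.05 (8.77% of all genes), 3 without overlap (16.8%) and 0 called by DESeq2. At day 14 edgeR called 0 of 6, against 1.66%, with 3 at an unadjusted p under 0.05 (24.6%), 4 without overlap (29%) and 0 called by DESeq2. At day 21 edgeR called 4 of 6, *SEMA6A* and *SEMA6D* higher and *SEMA6B* and *SEMA5A* lower, where 5.28% of all genes were called, and 5 of 6 did not overlap, against 35.4%. DESeq2 also called 4 at day 21, whereas edgeR called 2 without FAKi day 21 replicate 2 and 3 without replicate 3. The median log2 fold change of the 6 genes was 0.10, -0.014, 0.46 and 0.31 on the 4 days, beside -0.022, 0.014, -0.0071 and 0.015 over all genes tested.

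The count of 0 at day 3 changed with the DMSO libraries used. Without replicate 1, edgeR called *SEMA6A* at a log2 fold change of 1.47, *SEMA6D* at 1.60 and *SEMA6B* at -1.49 (Benjamini-Hochberg adjusted p = 2.13e-05, 0.000600 and 0.000143). The share of all genes called in that fit is not given here, and the 0% of the main fit does not belong to it. With replicates 2 and 3 left out instead, a single DMSO library remained, assumed to vary like the FAKi libraries. *SEMA6A* then differed by 0.52, *SEMA6D* by 0.63 and *SEMA6B* by -1.20, and no calls are given for that fit.

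**Figure D3:**
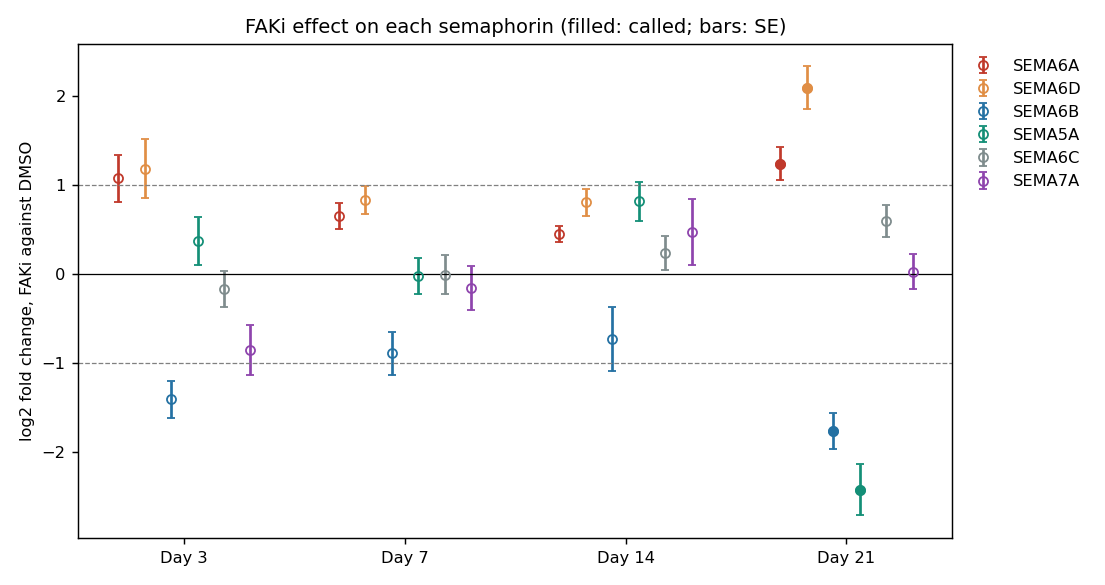
log2 fold change in FAKi against DMSO (y axis) of 6 semaphorins on each day (x axis), from 3 libraries per arm; bars are standard errors, filled points are called and dashed lines mark the fold limit. At day 21, SEMA6D (2.09) and SEMA6A (1.24) lie above and SEMA6B (-1.76) and SEMA5A (-2.42) below, and the points of days 3, 7 and 14 are open.

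The mitochondrial share differed between groups. It was lowest in DMSO at day 21 (5.49%, 5.49% and 9.75%), where *SEMA6A* was lowest and *SEMA6B* highest of the 9 groups. It was highest in DMSO at day 14 (22.0% to 26.97%), where *SEMA6A* was highest (747 CPM) and *SEMA6B* lowest (2.93 CPM) of the DMSO groups. Over all 9 groups these extremes fell in FAKi at day 14 (1022 and 1.76 CPM), with a share of 20.7% to 22.1%. FAKi day 21 had 10.7% to 11.2%. In DMSO at day 3 it was 18.1% in replicate 1, which held 534 CPM of *SEMA6A*, and 9.59% and 8.61% in replicates 2 and 3, which held 293 and 251 CPM. DMSO at day 0 and FAKi at day 3 had like shares, 17.0% to 18.8% and 16.8% to 18.7%. Their *SEMA6A* means were 399 and 745 CPM and their *SEMA6B* means 10.8 and 4.96 CPM, and they differ in both day and treatment. Whether the share is tied to these levels was not tested. With mitochondrial genes removed from the table, 4 of 6 genes were called at day 21, and over the 16 comparisons 2 calls were added. *SEMA6B* was added in FAKi at day 7 against DMSO at day 0 (edgeR Benjamini-Hochberg adjusted p = 0.04996). *SEMA6D* was added in FAKi at day 21 against day 14, just past the fold limit. Removing these genes changes little beyond the scaling, so it does not test whether the levels go with the share.

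The controls changed over time as well. Against DMSO at day 0, edgeR called 0 of 6 semaphorins in DMSO at day 3, where 0% of genes were called, 0 had an unadjusted p under 0.05 (9.86% of genes), and DESeq2 called 0. *SEMA6A* was at a log2 fold change of -0.19 there (SE 0.26), which was -0.58 without DMSO day 3 replicate 1 and 0.36 with replicates 2 and 3 left out, with edgeR Benjamini-Hochberg adjusted p of 0.0112 and 0.0163 and thus in opposite directions. With replicates 2 and 3 left out, *SEMA6D* was at 0.69 (edgeR adjusted p = 0.0137) and *SEMA5A* at 0.14 in place of -0.32, and no gene of the 6 was called either way. In DMSO at day 7 there were 2 of 6 (0.699% of genes), *SEMA6D* higher by a log2 fold change of 1.34 (SE 0.15) and *SEMA5A* lower at -1.55 (SE 0.12). At day 14 there were 3 of 6 (6.07%), *SEMA6D* at 1.52 (SE 0.20), *SEMA5A* at -1.91 (SE 0.15) and *SEMA6B* at -1.88 (SE 0.20), and without DMSO day 14 replicate 1 *SEMA7A* was called as well. *SEMA6A* was 0.90 (SE 0.10) above day 0 at day 14, under the fold limit with an edgeR adjusted p of 2.26e-05. At day 21 edgeR called 0 of 6, against 23.3% of genes, although 4 of 6 had an unadjusted p under 0.05, against 53.8%, and DESeq2 called 0. These were *SEMA5A* (-0.90), *SEMA6A* (-0.89), *SEMA6D* (-0.74) and *SEMA6B* (0.52), each with an edgeR Benjamini-Hochberg adjusted p below 0.05 (0.0111, 0.00523, 0.0353 and 0.0177) but a log2 fold change short of 1, so that none was called. Without DMSO day 21 replicate 3, *SEMA5A* and *SEMA6A* were called there.

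From day 14 to day 21 the DMSO arm turned sharply. edgeR called 5 of 6 semaphorins (26.8% of all genes), with *SEMA6B* higher at a log2 fold change of 2.41 (SE 0.23), *SEMA7A* at 1.25 (SE 0.30) and *SEMA5A* at 1.02 (SE 0.26), and *SEMA6D* lower at -2.26 (SE 0.25) and *SEMA6A* at -1.79 (SE 0.19). The call of *SEMA5A* ended without DMSO day 14 replicate 2 or 3 or DMSO day 21 replicate 3, under upper quartile scaling, with a replicate block and where every library needed at least 10 counts. In FAKi over the same week, edgeR called 3 of 6 (20.2% of all genes), *SEMA5A* at -2.24 (SE 0.23), *SEMA6A* at -1.02 (SE 0.09) and *SEMA6B* at 1.34 (SE 0.28). *SEMA6A* at day 21 in FAKi lay close to the fold limit, and its call ended without FAKi day 21 replicate 1 or 2, under upper quartile scaling and where every library needed at least 10 counts. *SEMA6D* fell by 0.99 (SE 0.15) on the log2 scale, just under the limit, and it was called without FAKi day 14 replicate 1 or FAKi day 21 replicate 3, without mitochondrial genes, in 1 fit of all 27 libraries and with a replicate block.

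FAKi libraries were also set against the same DMSO day 0 libraries, which these comparisons share. *SEMA6D* was called on all 4 days, at log2 fold changes of 1.35, 2.19, 2.32 and 1.32 (SE 0.15, 0.19, 0.15 and 0.19). *SEMA6B* was at -1.10, -1.17, -2.60 and -1.29 (SE 0.14, 0.23, 0.21 and 0.17) and was called on days 3, 14 and 21, with an edgeR Benjamini-Hochberg adjusted p of 0.0504 at day 7, where it was called by DESeq2, without FAKi day 7 replicate 2 and under most other settings. *SEMA6A* was at 0.90, 1.16, 1.35 and 0.31 (SE 0.08, 0.15, 0.07 and 0.10) and was called at days 7 and 14. *SEMA5A* was at 0.052, -1.57, -1.10 and -3.34 (SE 0.11, 0.19, 0.14 and 0.17) and was called at days 7, 14 and 21. The last of these stood for 10.1-fold less transcript than at day 0. *SEMA6C* and *SEMA7A* were called on none of the 4 days. In all, 2 of 6 genes were called at day 3 (1.29% of all genes), 3 at day 7 (0.758%), 4 at day 14 (10.3%) and 3 at day 21 (18.8%). At day 7 only *SEMA6D* kept its call when any 1 of the DMSO day 0 replicates was left out. At day 14 *SEMA5A* lost its call without FAKi day 14 replicate 1.

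Whether the FAKi effect itself changed was tested with interaction terms. From day 3 to day 14, edgeR called 0 of 6 (4.33% of all genes), 2 had an unadjusted p under 0.05 (24.9%), *SEMA6A* at -0.62 (SE 0.29) and *SEMA7A* at 1.33 (SE 0.42), and DESeq2 called 1, *SEMA7A*. Without DMSO day 3 replicate 1 edgeR called 2, *SEMA6A* (-1.01) and *SEMA7A* (1.32), where 2787 of 25068 genes were called. With DMSO day 3 replicates 2 and 3 left out instead, none of the 6 was called, *SEMA6A* was at -0.047 (edgeR adjusted p = 0.942), *SEMA6D* turned from -0.37 to 0.19, and *SEMA5A* was at 0.94, with an edgeR adjusted p of 0.0319 and a size under the limit. From day 14 to day 21, edgeR called 2 of 6 (7.43% of all genes), *SEMA5A* and *SEMA6D* as given above. *SEMA6A* differed by 0.77 (SE 0.21), with an edgeR Benjamini-Hochberg adjusted p of 0.0225 and a size under the limit, and *SEMA6B* by -1.06 (SE 0.37), with an edgeR adjusted p of 0.0722. *SEMA6B* was called without DMSO day 21 replicate 3 (with 3812 of 25666 genes called), by DESeq2, without a filter and in 1 fit of all 27 libraries. With 1 library left out at a time, the edgeR adjusted p of *SEMA6A* ran from 3.84e-05 to 0.0719.

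*SEMA6A*, *SEMA6D* and *SEMA6B* varied together across the series. Over the 9 group means of log2 CPM, Pearson's r was 0.967 between *SEMA6A* and *SEMA6D*, -0.878 between *SEMA6A* and *SEMA6B*, and -0.873 between *SEMA6B* and *SEMA6D*. Over single libraries, r between *SEMA6A* and *SEMA6D* was 0.955 in the 15 DMSO libraries and 0.844 in the 12 FAKi libraries, and between *SEMA6A* and *SEMA6B* it was -0.819 and -0.542. After each group's mean was taken away, r over the 27 libraries was 0.827 for *SEMA6A* with *SEMA6D* and -0.274 for *SEMA6A* with *SEMA6B*. These are descriptions, and the values of a library share its depth, scaling and mitochondrial share. Other pairs were looser, with r over the 9 groups of 0.712 for *SEMA6B* with *SEMA7A*, -0.751 for *SEMA6A* with *SEMA7A* and -0.190 for *SEMA5A* with *SEMA6A*.

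**Figure D4:**
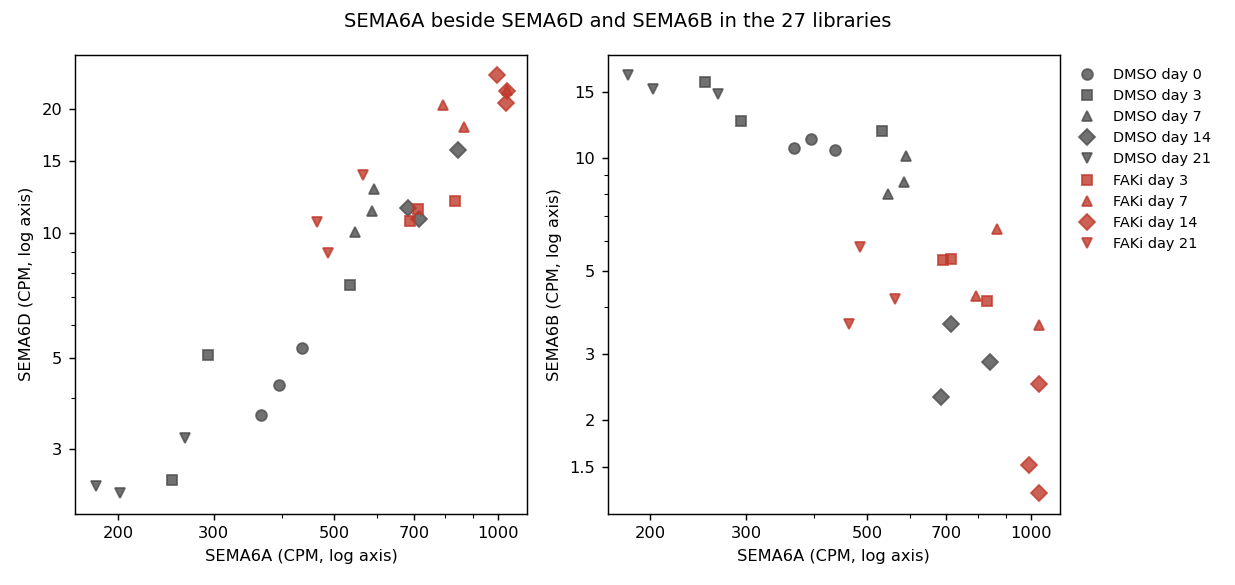
SEMA6A (x axis) against SEMA6D (left) and SEMA6B (right) in the 27 libraries, in CPM on log axes; grey is DMSO, red is FAKi, and the symbol gives the day. SEMA6D rises and SEMA6B falls along SEMA6A, from DMSO day 21 at 182 to 266 CPM of SEMA6A to FAKi day 14 at 994 to 1037 CPM.

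Among 16981 genes with a mean of at least 1 CPM, those most like each semaphorin were found by Pearson's r over the 9 group means. For *SEMA6A* they were *TACC1* (0.994), *DAB2* (0.986), which encodes an endocytic adaptor, and the pseudogene *DPY19L2P2* (0.984), and r over the 27 libraries was 0.959, 0.975 and 0.958. *SEMA6D* was matched by ENSG00000285103 (0.988), *FAM120C* (0.980) and *IGSF11* (0.979), which encodes a cell adhesion protein. For *SEMA6B* they were *NXN* (0.985), *NOTUM* (0.985), which encodes a secreted inhibitor of Wnt ligands, and *DNAAF3* (0.985). *SEMA5A* was matched by *BMPR1B* (0.982), a receptor for bone morphogenetic proteins, by the integrin subunit *ITGA1* (0.978) and by the phosphate transporter *SLC20A2* (0.965). For the matches of *SEMA6D*, *SEMA6B* and *SEMA5A*, r over the 27 libraries was 0.836 (*NOTUM*) to 0.953 (*IGSF11*). For *SEMA6C*, ENSG00000253326 (0.971), the class 4 semaphorin *SEMA4C* (0.964) and *RTL10* (0.959) came first, with r over the 27 libraries of 0.738, 0.812 and 0.582. *SEMA7A* was nearest to *MOGS* (0.989), *MIR1184-1* (0.986) and *PGAM5* (0.980), with r over the 27 libraries of 0.877, 0.767 and 0.837. *MIR1184-1* had a mean of 1.00 CPM, close to the lower limit.

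The textbook receptors of these ligands moved in different directions. *PLXNA2*, a receptor of *SEMA6A*, was at 31.1 ± 6.17 CPM in DMSO and 9.06 ± 1.14 CPM in FAKi at day 21 (SD, n = 3), a log2 fold change of -1.76 (SE 0.19) that was called (edgeR's quasi-likelihood test, Benjamini-Hochberg adjusted p = 0.00420). At day 7 it was at 43.0 ± 4.79 and 17.4 ± 3.74 CPM, with libraries that did not overlap and an edgeR adjusted p of 0.0762. *PLXNA4*, the other receptor of *SEMA6A*, was at or below 0.261 CPM in every group mean. *PLXNA1*, a receptor of *SEMA6D*, was at 167 ± 28.9 CPM in DMSO and 287 ± 34.6 CPM in FAKi at day 21, a log2 fold change of 0.80 (SE 0.17) under the fold limit (edgeR Benjamini-Hochberg adjusted p = 0.0267). *PLXNB3*, a receptor of *SEMA5A*, was at 15.9 ± 2.01 and 23.2 ± 3.12 CPM there (0.57, SE 0.17, edgeR adjusted p = 0.0610).

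*PLXNC1*, the plexin of *SEMA7A*, was higher in FAKi at day 21, when *SEMA7A* itself stood at 3.90 ± 0.354 CPM in DMSO and 3.91 ± 0.0879 CPM in FAKi. *PLXNC1* was at 35.6 ± 6.39 CPM in DMSO and 152 ± 24.6 CPM in FAKi at day 21, and was called at a log2 fold change of 2.12 (SE 0.18, edgeR's quasi-likelihood test, Benjamini-Hochberg adjusted p = 0.00257). Its log2 fold changes at days 3, 7 and 14 were 1.16, 0.96 and 0.44, none of them called. *ITGB1*, the integrin partner of *SEMA7A*, was at 106.8 ± 78.3 CPM in DMSO and 127 ± 28.0 CPM in FAKi at day 21, with log2 fold changes of 0.84, -0.10, -0.071 and 0.26 on the 4 days and no call.

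**Figure D5:**
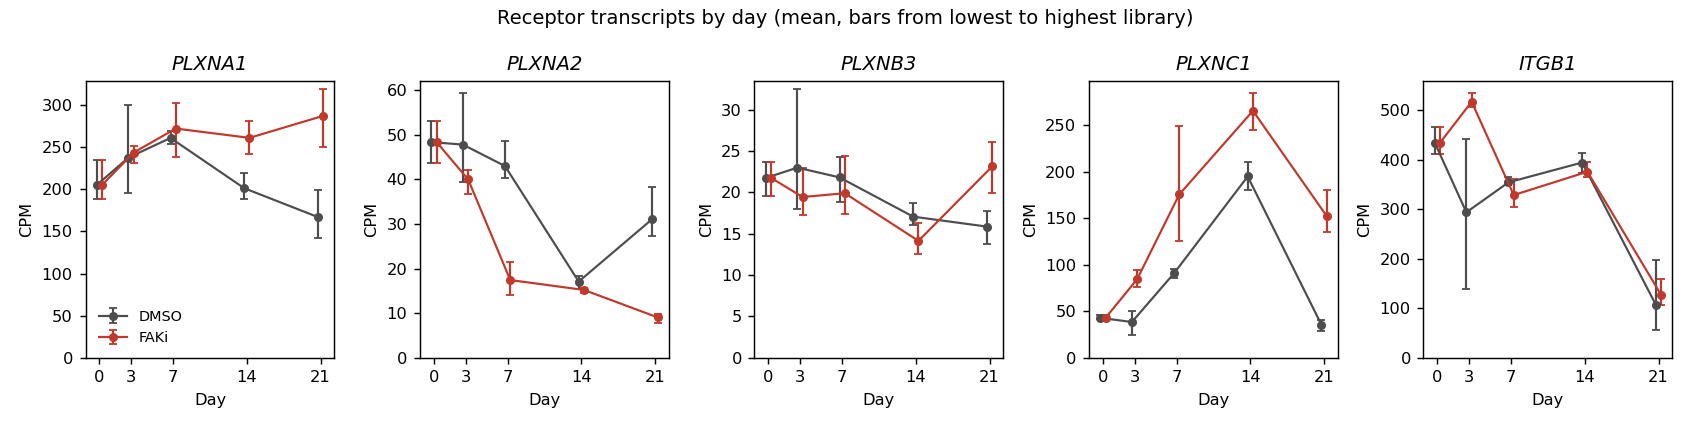
Level (CPM, linear axes from 0) of 5 receptor transcripts against day; points are group means, bars run from the lowest to the highest of 3 libraries, grey is DMSO and red is FAKi. At day 21, PLXNC1 is higher (152 against 35.6 CPM) and PLXNA2 lower (9.06 against 31.1 CPM) in FAKi, while the bars of ITGB1 overlap.

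Genes of the wider pathway were called at days 14 and 21. At days 3 and 7 edgeR called 0 in each list, where DESeq2 called 1 class 3 semaphorin and 1 plexin higher at day 3 and 1 plexin lower at day 7. Unadjusted p-values under 0.05 were found at days 3 and 7 for 3 and 3 class 3 semaphorins, 3 and 2 plexins, 4 and 3 co-receptors, and 4 and 4 intracellular genes, where the share of all genes was 23.8% and 8.77%. The numbers tested on these days were, in the same order, 6 and 6, 9 and 8, 8 and 8, and 26 and 26. At day 14 and day 21, 1.66% and 5.28% of all genes were called. Among 9 plexins, all tested at day 14, *PLXND1*, the receptor of class 3 semaphorin *SEMA3E*, was called higher on that day (1.01, SE 0.14). At day 21, when 8 were tested, *PLXNC1* was called higher and *PLXNA2* lower. Of the class 3 semaphorins, which are secreted, 7 were tested at day 14 and 6 at day 21. *SEMA3C* was called higher at day 14 (1.11, SE 0.22), at 7.13 ± 2.84 CPM in DMSO and 15.4 ± 0.812 CPM in FAKi. *SEMA3A* was called lower at day 21 (-3.10, SE 0.44), at 2.27 ± 0.665 CPM in DMSO and 0.262 ± 0.105 CPM in FAKi. Of 6 class 4 semaphorins, edgeR and DESeq2 each called 0 on all 4 days. At an unadjusted p under 0.05 there were 0, 0, 1 and 2, and at day 21 this held for 7576 of the 23212 genes tested. Among 12 co-receptors, of which 8 were tested, the adhesion molecule *L1CAM* was called lower at day 14 (-1.81, SE 0.38) and day 21 (-2.63, SE 0.37), and *ITGA1* at day 21 (-1.38, SE 0.29). Among 26 intracellular genes of semaphorin signaling, *CRMP1*, a collapsin response mediator, was called higher at day 21 (2.65, SE 0.54), at 0.622 ± 0.481 CPM in DMSO and 3.85 ± 1.56 CPM in FAKi. Of these 26, edgeR called 0 at day 14, with 13 at an unadjusted p under 0.05 (24.6% of all genes), and DESeq2 called 1 higher. DESeq2 called 2 class 3 semaphorins lower at day 21, and its other counts in these lists at days 14 and 21 equalled those of edgeR. The median log2 fold change at day 21 was -0.76 for class 3 semaphorins, 0.13 for class 4 semaphorins, 0.15 for plexins, -0.021 for co-receptors and -0.057 for the intracellular genes, beside 0.31 for the 6 semaphorins of classes 5, 6 and 7 and 0.015 for all genes.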

How the data were processed

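RNA sequencing measured gene expression in 27 libraries of the 92.1 line. Per the file headers and the labels, the authors trimmed reads with Trim Galore, checked them with FastQC 0.11.8, aligned them to hg38 with STAR 2.5.3a and counted them with HOMER on the exons of 1 transcript per GENCODE 39 gene. The deposited values are raw counts, whole numbers without normalization, and reads on both strands may be included. The table names no unassigned or total row, and 0 of its columns lacked a sample label.

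Groups followed treatment and day in the labels. In 16 comparisons, edgeR 4.0.16 (R 4.3.3) was fitted to the libraries concerned with TMM scaling, after removing genes whose counts summed to less than 20, and the quasi-likelihood F test was adjusted by Benjamini-Hochberg over all genes tested. Calls needed an adjusted p no higher than 0.05 and a log2 fold change beyond 1 in either direction. The source methods use DESeq2, which was run here as an alternative (1.42.0). Scripts were tested on simulated data. Levels are CPM, and RPKM where genes are compared. Correlations used log2 CPM with a prior count of 2. Depth gave 21 or more counts per library for each of the 6 semaphorins tested. Called partner genes could be lower, with *SEMA3A* down to 0.176 CPM and *CRMP1* down to 0.227 CPM in a library.

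The 7 genes and the lists of related genes were chosen with earlier results of these data known. Named besides them were partner genes called in FAKi against DMSO on at least 1 day, the textbook receptors, and the 3 genes with the highest r to each semaphorin. Replicate numbers were checked for pairing by correlating the deviations of same-numbered libraries from their group means: all 3 values were over 0.1 only for FAKi against DMSO at day 21 (0.433, 0.137 and 0.649), so the pairing there comes from the data and not from the labels. Alternatives were other scalings, filters and tools, all 27 libraries in 1 fit, a replicate block and each library left out. Chosen after seeing the data were a table without mitochondrial genes and the removal of DMSO day 3 replicates 2 and 3. Exon overlaps came from GENCODE 44, whose transcript ends match the table, and promoters from RefSeq. Protein sequences were not used here.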

Additional observations from a re-analysis of the deposited data

Results flagged for a closer look

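The effect of FAKi differed between days 14 and 21 by the edgeR interaction term for *SEMA5A* and *SEMA6D*, which were called, and at an adjusted p below 0.05 for *SEMA6A*, whose size was under the limit. For *SEMA5A* the log2 fold change at day 21 was lower than at day 14 by a difference of -3.26 (Benjamini-Hochberg adjusted p = 5.46e-05), with all 3 FAKi libraries above DMSO at day 14 and all 3 below at day 21. For *SEMA6D* the difference was 1.27 (edgeR adjusted p = 0.00938) and for *SEMA6A* 0.77 (edgeR adjusted p = 0.0225, and up to 0.0719 with 1 library left out), with FAKi the higher in all libraries on both days. Both genes fell from day 14 to day 21 in both arms. The log2 fold changes of *SEMA6D* and *SEMA6A* were -0.99 and -1.02 in FAKi and -2.26 and -1.79 in DMSO. The mitochondrial share of DMSO libraries was 22.0% to 26.97% at day 14 and 5.49% to 9.75% at day 21, against 20.7% to 22.1% and 10.7% to 11.2% in FAKi. With mitochondrial genes removed from the table the 3 differences were -3.26, 1.27 and 0.77, but this removal changes little beyond the scaling. Whether the differences go with the share was not tested.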

How the results depend on the processing

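Of 255 recomputed counts of called semaphorins over the 16 comparisons, 237 stayed within 1.5 times the reported count, and of 342 recomputed log2 fold changes in FAKi against DMSO 313 kept their direction and their side of the limits. FAKi against DMSO at day 3 gave 3 calls in place of 0 without a filter, by DESeq2 and in 1 fit of all 27 libraries. With the adjusted p alone there were 3 calls for FAKi against DMSO at day 14, 5 for DMSO day 14 and 4 for DMSO day 21 against day 0, and 5 for FAKi day 21 against day 14, since this drops the fold limit. The change from day 3 to day 14 gave 1 call by DESeq2, in 1 fit of all 27 libraries and where every library needed at least 10 counts. Leaving out 1 library gave 0 to 3 calls at day 3 and 2 to 4 at day 21 for FAKi against DMSO, 0 to 2 for DMSO day 21 and 1 to 4 for FAKi day 7 against DMSO day 0, and 0 to 2 for the change from day 3 to day 14. The cause was not tested unless named.

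With a replicate block, 4 genes were called for FAKi against DMSO at day 21 as without it. The pairing changed no other count by over 1.5 times, but it ended the call of *SEMA5A* in DMSO day 21 against day 14 and added *SEMA6B* in FAKi day 7 against day 0 and *SEMA6D* in FAKi day 21 against day 14.

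In FAKi against DMSO, 13 values reversed, all uncalled. *SEMA5A* at day 3 was -0.11 with 2 of 3 DMSO day 3 libraries left out, *SEMA6C* at day 7 was 0.00084 where every library needed at least 10 counts, and *SEMA7A* at day 21 was -0.024 with all 27 libraries in 1 fit. Leaving out 1 library gave *SEMA6C* -0.27 to 0.011 at day 3 and -0.18 to 0.17 at day 7, *SEMA5A* -0.19 to 0.062 at day 7, and *SEMA7A* -0.020 to 0.12 at day 21. Depth limits *SEMA5B*, which could not be tested, *SEMA7A*, with as few as 21 counts in a library, and *SEMA5A* in FAKi at day 21, with 26 to 67 counts.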
